A study of Mus musculus with 6 samples.

Results

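Narrow unmethylated CpG-dense windows are 1 kb stretches of the mouse autosomes that hold many CpG sites with almost no methylation and that stand in short runs. They were chosen by measured values: a window needed at least 20 CpG sites with 10 or more reads in all 6 libraries, and the median of its sites' mean levels over the 6 libraries had to be under 5%. Windows in a run of 4 or more neighbouring windows under 5%, each with at least 3 such sites, were left out as broad. The level of a site is the percent of its covering reads that are methylated. Of 138996 windows with a shared site, 9958 met the rule, which is 89.83% of the 11086 autosomal windows with at least 20 shared sites. The other dense windows were 274 broad ones, 711 with a median of 5 to under 80% and 143 of 80% or more.

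The libraries came from kidney cortex and outer medulla of male wild-type C57BL/6J mice, measured by reduced representation bisulfite sequencing, in which MspI cuts DNA at CCGG and short fragments are read after bisulfite treatment. The saline group had the left ureter tied and cut for 7 days with saline as treatment (UUO, a model of renal fibrosis), the 5AZA group had the same obstruction with 5AZA at 1 mg/kg per day in saline, and the sham group had surgery without ligation. Each of the 3 groups had 2 libraries. Sham 1 was the sham of the obstruction model, and sham 2 the sham of an ischemia/reperfusion experiment at 48 hours. The labels give no ages and name no individual animals, so p-values here cover the spread between libraries, part of which may be technical. Where a group's pair of values is given, replicate 1 comes first. Gene expression was not measured, so the tissue could not be checked by marker genes.

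A CpG is a cytosine followed by guanine, and its methylation is set by the DNMT3 enzymes, copied at replication by DNMT1 with UHRF1, and removed through oxidation by TET enzymes. In most of the mammalian genome CpGs are sparse and methylated. CpG islands are the exception: short, CpG-rich, mostly unmethylated stretches that hold the promoters of housekeeping genes and of many developmental genes, in kidney as in other tissues.

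The promoters below show what these windows look like as sequence, and each is the 250 bases before a gene's start (RefSeq, build GRCm38.p6), 5′ to 3′ in the direction of transcription, with every MspI recognition site, CCGG, in capitals. They stand for a ribosomal protein (Rpl10a), a proteasome subunit (Psma5), a de novo DNA methyltransferase (Dnmt3a) and the endocytic receptor megalin of proximal tubules (Lrp2), and for a pair of promoters with unusual sites, those of the tetraspanin Cd9 and of the membrane skeleton protein gene Epb41l1.
Rpl10a: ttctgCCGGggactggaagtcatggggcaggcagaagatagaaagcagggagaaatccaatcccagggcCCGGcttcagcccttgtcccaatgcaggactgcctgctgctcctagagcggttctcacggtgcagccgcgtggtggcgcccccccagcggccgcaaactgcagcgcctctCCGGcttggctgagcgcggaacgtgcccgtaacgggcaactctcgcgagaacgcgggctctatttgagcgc
Psma5: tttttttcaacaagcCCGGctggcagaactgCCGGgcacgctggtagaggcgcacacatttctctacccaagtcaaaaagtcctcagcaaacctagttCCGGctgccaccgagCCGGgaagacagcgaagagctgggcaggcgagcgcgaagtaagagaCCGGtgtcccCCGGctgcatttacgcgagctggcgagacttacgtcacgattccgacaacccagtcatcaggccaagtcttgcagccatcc
Dnmt3a: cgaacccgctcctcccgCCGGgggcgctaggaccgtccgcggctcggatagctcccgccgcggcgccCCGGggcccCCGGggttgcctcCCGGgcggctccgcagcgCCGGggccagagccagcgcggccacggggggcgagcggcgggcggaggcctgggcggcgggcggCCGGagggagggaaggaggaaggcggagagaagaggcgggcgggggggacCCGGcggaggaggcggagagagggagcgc
Lrp2: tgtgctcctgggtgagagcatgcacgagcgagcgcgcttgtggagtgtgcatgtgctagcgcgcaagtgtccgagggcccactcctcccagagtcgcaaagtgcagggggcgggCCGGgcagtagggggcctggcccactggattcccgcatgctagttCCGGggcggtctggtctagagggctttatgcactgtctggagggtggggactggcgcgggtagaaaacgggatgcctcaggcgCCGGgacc
Cd9: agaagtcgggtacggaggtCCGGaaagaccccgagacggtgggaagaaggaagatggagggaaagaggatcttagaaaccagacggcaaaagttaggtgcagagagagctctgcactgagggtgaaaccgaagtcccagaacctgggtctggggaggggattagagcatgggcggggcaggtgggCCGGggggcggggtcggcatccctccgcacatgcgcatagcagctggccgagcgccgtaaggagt
Epb41l1: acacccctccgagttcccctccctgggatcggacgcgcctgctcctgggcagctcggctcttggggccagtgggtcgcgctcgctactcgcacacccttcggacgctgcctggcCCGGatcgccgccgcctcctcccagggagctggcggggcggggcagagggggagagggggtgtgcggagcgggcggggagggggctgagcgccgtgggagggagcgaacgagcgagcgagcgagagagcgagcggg
On this build they lie at chr17:28328315-28328564 (Rpl10a, plus strand), chr3:108256676-108256925 (Psma5, plus), chr12:3806730-3806979 (Dnmt3a, plus), chr2:69586030-69586279 (Lrp2, minus), chr6:125494761-125495010 (Cd9, minus) and chr2:156420841-156421090 (Epb41l1, plus). Positions in promoters are counted from the gene start, with -1 for the last base before it.

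The Rpl10a promoter shows the pattern of levels. Its stretch above holds 21 CpGs, of which 3 lie in a CCGG and 20 were covered. The CCGG at -70 had 76.7 and 75.0% for saline, 65.3 and 70.5% for sham, and 70.0 and 75.4% for 5AZA, from 105 to 223 reads. Its next CpG towards the start, at -57, had at most 4.59% in any library, and the CpG at -94 had 0% in all 6, which at 49 reads in the shallowest library allows a level of up to 6.12% by counting error alone. In this stretch each high CpG lay in a CCGG. In Psma5 the 5 covered CCGG sites of the stretch averaged 75.9 and 76.7% for saline, 81.6 and 68.7% for sham and 81.9 and 77.8% for 5AZA, beside 0 to 1.61% at its 12 other covered CpGs. In Lrp2 the 3 CCGG sites averaged 71.5 to 83.3% over the libraries and the 12 others 1.05 to 1.89%.

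Before the comparisons, library depth and the place of sham 2 matter. Covering reads summed over CpG sites ran from 37728517 in sham 2 to 76730132 in saline 1, and the windows took 39.9 to 45.8% of the reads at shared sites. The median CpG site of a window had 36 reads in sham 2 and 49 to 79 in the others. Sham 2 had the lowest level at both low and high sites of the windows. Differences of library means from sham are therefore given with both sham libraries and against sham 1 alone; values for single autosomes and single windows use both. Reads carry no molecular identifiers, so counts of reads are not counts of molecules. How completely bisulfite treatment converted unmethylated cytosines was not measured here. Whether it sets the levels of low sites, or their differences between libraries, was not tested.

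The windows held 381440 CpG sites, 40.44% of the 943307 shared sites. A window had a median of 34 sites (20 to 138), and its median level, which chose it, ran from 0.379 to 4.996% with a median of 1.61%. Windows stood alone in 3684 cases (37.0%), in pairs in 5230 (52.52%) and in runs of 3 in 1044 (10.48%). A run also ended where the next window had fewer than 3 shared sites. Run lengths, and the name narrow, are therefore not measured widths of unmethylated DNA. The number of windows per autosome ran from 301 to 829. On chromosome X, which the rule leaves out, 150 windows met its other limits. Just inside the threshold lay windows on chr10:21993001-21994000, chr7:121706001-121707000 (with the start of Cyp2r1) and chr3:145316001-145317000, with medians of 4.996, 4.99 and 4.987% (positions of windows are on mm9). Just outside lay chr9:55390001-55391000, chr2:73109001-73110000 and chr5:73398001-73399000, with 5.007, 5.012 and 5.02%. The richest windows in CpG sites were chr13:69673001-69674000, with the start of A930018O16Rik and 138 sites, and chr2:167514001-167515000, with 125 sites and the start of Cebpb, a leucine zipper transcription factor.

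Within windows, site levels fell into separate ranges. Of all sites, 31.19% were under 1%, 25.99% at 1 to under 2% and 20.98% at 2 to under 5%, whereas 3.57% lay at 5 to under 10% and 1.36% at 10 to under 30%. Another 15.29% lay at 60 to under 90%. Sites of 30% or more, called high sites here, numbered 64451 (16.9%), and the rest are called low sites. Every window had at least 1 high site, with a median of 6 and a maximum of 18. The median spacing of neighbouring high sites was 84 bp, with 82.28% of spacings at 40 to 220 bp, the insert range of the protocol. The mean level of a window's high sites ran from 47.4 to 88.9% with a median of 72.95%.

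Gene starts were placed in the windows by the spacing of CpG sites, without converting positions between builds. Of 27025 genes with a promoter sequence in the RefSeq table, 5353 were placed, and 4177 of these (78.03%) had their start in a narrow unmethylated window. Another 51 started in broad windows, 62 in dense windows of 5 to under 80%, 5 in dense windows of 80% or more, and 1058 in windows with fewer shared sites or off the autosomes. A placed start lay in 3685 of the 9958 windows (37.01%), and 490 windows held at least 2. Placement needed at least 10 covered CpGs, so a window without a placed start may still hold a gene start.

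Promoter sequence separated high from low sites almost completely. In the 4177 promoters, each with 250 bases before and 50 after the start, 11274 of 11284 covered CCGG sites were high (99.91%), against 107 of 65699 other CpGs (0.163%). Put the other way, 99.06% of the high sites lay in a CCGG. The median level was 72.89% at CCGG sites, with 5th and 95th percentiles of 58.8 and 85.2%, and 1.29% at the others, with 0 and 5.11%. At CCGG sites the level was 73.8 and 74.0% for saline, 72.7 and 69.0% for sham, and 72.8 and 73.0% for 5AZA. Per the labels' protocol, the ends that MspI leaves were filled in with a mix that held methylated dCTP. Coverage lay within 5% of the summed coverage of both neighbours at 23.16% of CCGG sites and at 0.723% of other sites. Whether the fill-in step sets the levels at CCGG was not tested.

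**Figure D1:**
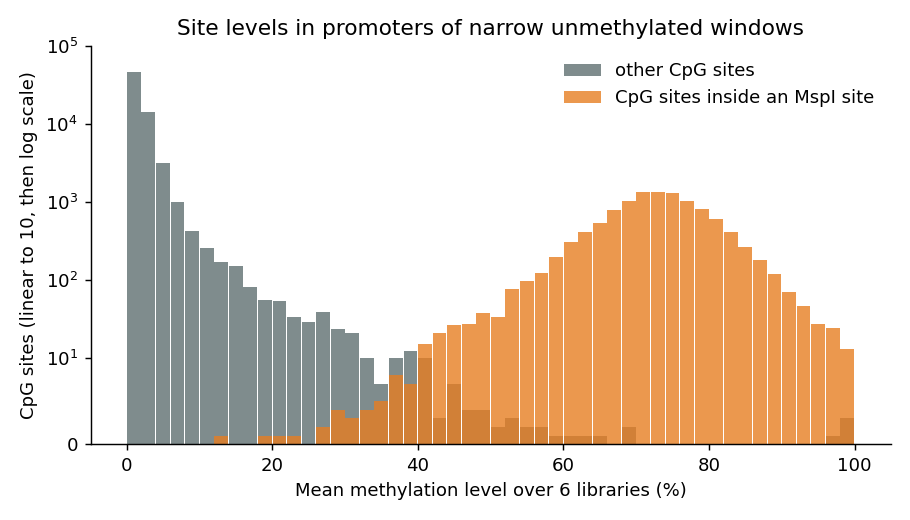
Number of CpG sites (y axis, linear to 10 and logarithmic above) by mean methylation level over 6 libraries (x axis, %, bins of 2) in the 4177 promoters, with sites inside an MspI recognition site and other sites overlaid. The 2 kinds hardly overlap: medians are 72.89% and 1.29%.

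The low sites also differed by their neighbouring base. CpGs with no guanine directly before them on either strand averaged 1.14 and 1.17% for saline, 0.939 and 0.497% for sham, and 1.07 and 1.06% for 5AZA (14258 sites). With a guanine before the CpG on both strands (GCGC, 12375 sites) they averaged 2.57 and 2.69%, 2.40 and 1.07%, and 2.58 and 2.61%. Levels with a guanine on 1 strand lay between these in each of the 6 libraries (38959 sites). Low sites within 1 to 4 bp of a CCGG averaged 3.16 to 4.97% over the libraries, those at 9 to 20 bp 0.591 to 1.79%, and those at 41 to 60 bp 1.04 to 2.58%. In each of the 6 distance classes the GCGC sites were above the sites without such a guanine in all 6 libraries. These levels are over sites that share libraries and reads, and no test was made of them. Whether incomplete bisulfite conversion sets them was not tested.

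**Figure D2:**
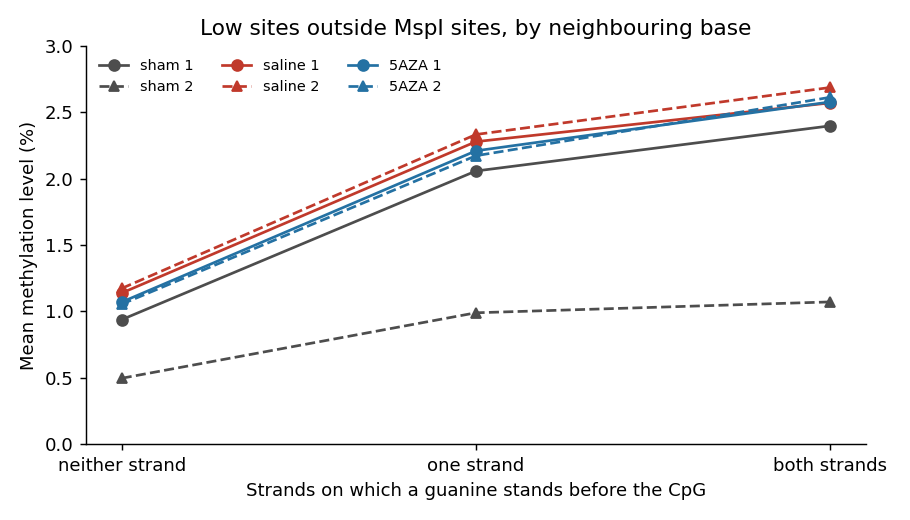
Mean methylation level (y axis, %) of low sites outside MspI sites in the promoters, by the number of strands with a guanine before the CpG (x axis), 1 line per library. Each line rises from neither to both strands, and sham 2 runs below the other 5 libraries at every step, from 0.497 to 1.07%.

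Levels stayed low across the gene start and rose within 2000 bp on both sides. In bins of 250 bp centred on the start, the median site level was 1.49 to 1.75% in 5 libraries and 0% in sham 2. At 1000 bp before the start it was 2.74 to 3.28% in those 5 libraries and at 1000 bp after it 3.26 to 3.85%. At 2000 bp the medians of all 6 libraries were 61.5 to 67.5% before and 51.9 to 61.4% after. Farther before the start the medians did not keep rising: they were 16.7 to 24.5% at 3500 bp and 12.2 to 21.6% at 4500 bp. The position of the edge nearest the start is partly set by the rule, which leaves out runs of 4 windows or more. Windows beyond the runs were more methylated the farther away they lay. Their means over the libraries were 47.5 to 51.2% at 1 kb (2307 windows) and 65.8 to 69.9% at 5 kb (1056 windows). The rule sets part of this height. A measured window next to a run has a median of 5% or more by definition, and narrow windows were left out at each distance.

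**Figure D3:**
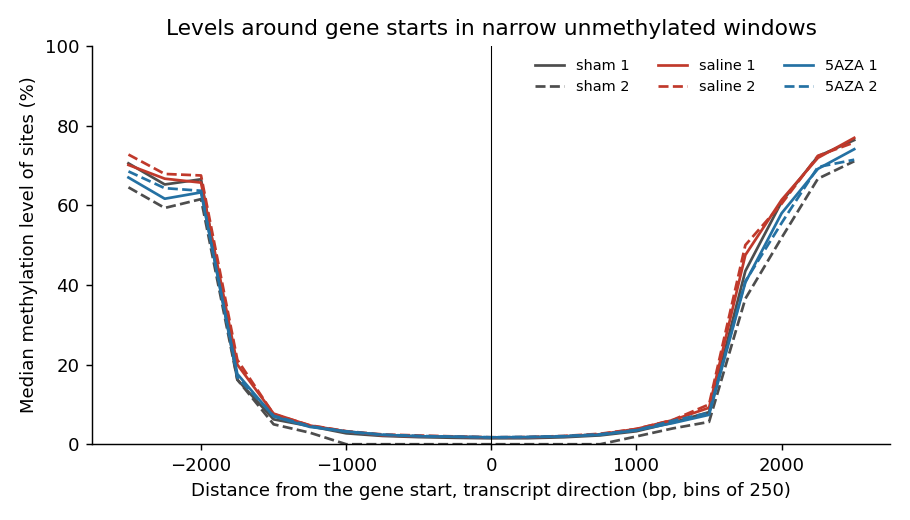
Median methylation level of covered CpG sites (y axis, %) by distance from the gene start in the direction of transcription (x axis, bp, bins of 250), 1 line per library, around the 4177 starts. Levels are near 0 around the start and above 50% at 2000 bp on either side.

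The promoters were rich in guanine and cytosine and in CpG, which follows in part from the requirement of 20 sites per window. Their median GC content was 69% against 52.67% over all 27025 genes' promoters, and their median ratio of observed to expected CpG was 0.904 against 0.389. Motifs were searched on both strands of the 300 bases. The SP1 motif GGGCGG was in 83.79% of the 4177 promoters and in 35.91% of all promoters. The ETS motif CCGGAAG, which contains CCGG, was in 20.71% and 9.12%, the NRF1 motif TGCGCATGC in 3.06% and 1.59%, and the YY1 motif AAGATGGCG in 2.97% and 1.50%. The NF-Y motif CCAAT was in 31.17% and 37.92%, and the TATA box TATAAA in 3.18% and 14.16%. CCGG was in all 4177 and in 52.6% of all promoters. Among all 5353 placed promoters the shares were close to these, 81.95% for SP1 and 3.40% for the TATA box, so placement itself goes with this composition.

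Gene lists were read for which promoters lay in the windows. RefSeq's table held 64 ribosomal protein genes, of which 22 were placed and 19 started in the windows. For proteasome subunits it was 6 of 10 placed (32 in the table), for DNA methylation machinery 7 of 7 (11), for nephron transcription factors 3 of 4 (10), for matrix and fibrosis genes 1 of 2 (9), and for tubule and podocyte genes 1 of 1 (13). No leukocyte gene (3 in the table) and no endothelial gene (2) was placed. These lists describe the windows and say nothing of expression.

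At non-CCGG CpGs the named promoters stayed within a few percent in each library. Rpl10a had 2.01 and 1.51% for saline, 1.06 and 0.267% for sham, and 1.72 and 1.37% for 5AZA over 22 sites. Dnmt1, the maintenance methyltransferase, had 1.24 and 1.03%, 2.49 and 0.639%, and 1.40 and 0.885% over 18 sites. Dnmt3a had 1.93 and 2.09%, 1.81 and 1.33%, and 2.34 and 2.61% over 34 sites. Sham 1 was the highest library in Dnmt1 and a 5AZA library the highest in Dnmt3a, so these promoters did not share an order of libraries. Tet2, which oxidises methylcytosine, ranged from 0.271 to 2.23% and Uhrf1, the partner of Dnmt1, from 0.189 to 3.17%. Among nephron regulators, Six2 of nephron progenitors ranged from 0.703 to 3.09%, Foxc1 from 0.0772 to 1.85%, and Pax2, needed for kidney formation, from 2.29 to 4.28%. Tgfbr1, a receptor of the profibrotic cytokine TGF-beta, ranged from 2.68 to 3.28% over 8 sites, and Lrp2 from 1.05 to 1.89%. In Pax2, Six2 and Foxc1 the lowest library was sham 2, 5AZA 1 having 0.321% in Foxc1 as the next lowest there.

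The first comparison asked whether obstruction moved these windows away from sham. Low sites averaged 2.26 and 2.30% for saline against 1.99 and 1.05% for sham. Both saline libraries were above both sham libraries, by 0.764 points between means (2.28% ± 0.0265 and 1.52% ± 0.663, SD, n = 2 each; exact two-sided permutation p = 0.333, the smallest that 2 against 2 allow), and by 0.295 points against sham 1 alone. The difference was above 0 on 19 of 19 autosomes, from 0.712 to 0.847 points, though autosomes share their libraries and are not replicates. High sites, whose levels the window median does not use, averaged 74.3 and 74.4% for saline against 73.0 and 69.3% for sham. That was 3.22 points higher in saline (74.3% ± 0.101 and 71.1% ± 2.60, SD, n = 2 each; exact two-sided permutation p = 0.333) and 1.38 points against sham 1 alone. In the promoters 99.06% of high sites lay in a CCGG. Whether the fill-in step sets their levels was not tested, here or in the comparisons below. In windows 1 to 5 kb beyond the runs, the level was 62.0 and 62.1% for saline against 60.6 and 58.7% for sham, a difference of 2.41 points (exact permutation p = 0.333) and of 1.48 points against sham 1 alone.

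**Figure D4:**
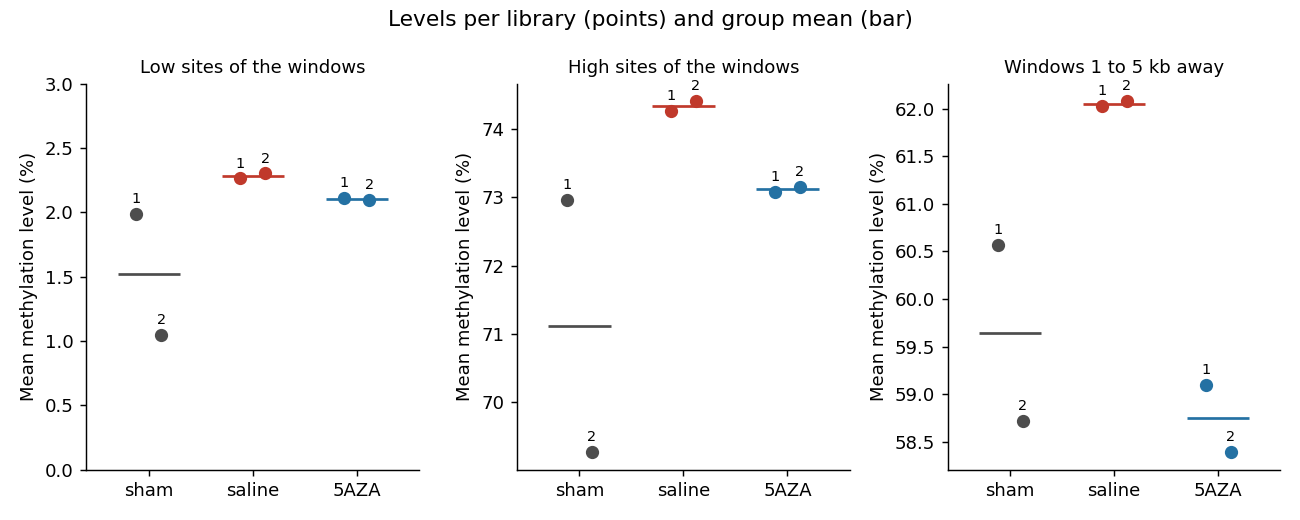
Mean methylation level (y axes, %, each with its own range and the last pair not starting at 0) of low sites, high sites and windows 1 to 5 kb away, with 1 point per library, its replicate number above it, and a bar at the group mean of 2 libraries. Sham 2 lies well below sham 1 in all 3 panels, and the 5AZA points lie under the saline points in all 3.

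The second comparison asked what 5AZA did in obstructed kidneys. Low sites averaged 2.11 and 2.10% with 5AZA, 0.180 points below saline (2.10% ± 0.0120 and 2.28% ± 0.0265, SD, n = 2 each; exact two-sided permutation p = 0.333). The difference was negative on 19 of 19 autosomes, which again share their libraries and are not replicates. High sites averaged 73.1 and 73.2% with 5AZA, a difference of -1.22 points (exact permutation p = 0.333). In the windows 1 to 5 kb away the 5AZA libraries had 59.1 and 58.4%, a difference of -3.31 points (exact permutation p = 0.333). Over all 138996 windows of the series with a shared site the difference was -3.19 points. For low sites, high sites and the windows nearby, neither 5AZA library reached the level of either saline library.

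The third comparison, 5AZA against sham, shares the sham libraries with the first and the 5AZA libraries with the second. Low sites were 0.584 points higher with 5AZA, and 0.115 points against sham 1 alone. High sites were 2.00 points higher, and 0.164 points against sham 1 alone (exact permutation p = 0.333 for both levels). In the windows 1 to 5 kb away, 5AZA lay 0.903 points lower at 58.7% against 59.6%, where the groups overlapped (exact permutation p = 0.667), and 1.83 points lower against sham 1 alone. Against sham 2 alone it was 0.0231 points higher, so the direction rested on which sham library was used.

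No single narrow unmethylated window passed the test in any comparison. Counts of methylated and unmethylated reads were summed over the CpG sites of a window, so a read counted at each site it covered. They were tested with edgeR's quasi-likelihood test over all windows of at least 3 sites. Adjustment was by Benjamini-Hochberg, with an adjusted p under 0.05 as the threshold. With all sites, 0 of 9958 were called for saline against sham (0.0501% of all 89813 windows were), 0 for 5AZA against saline (1.56% of all windows) and 0 for 5AZA against sham (0.00111%). The smallest edgeR adjusted p among them were 0.0988, 0.0534 and 0.132. All 6 libraries shared 1 estimate of the spread, so the sham libraries also entered the test of 5AZA against saline. The common dispersion was 0.00658 with all libraries, 0.00475 without sham 1 and 0.00504 without sham 2. At an unadjusted p under 0.05 there were 629, 123 and 608 windows, that is 6.32, 1.24 and 6.11%, where all windows had 10.43, 23.19 and 14.72%. Of these, 595 of the 629 were higher in saline than in sham. With 5AZA 86 of the 123 were higher and 37 lower than with saline, and 591 of the 608 higher than in sham. Over all windows tested, whatever their p, 61225 were above 0 and 28587 below for saline minus sham. For 5AZA minus saline these were 18794 and 71018, and for 5AZA minus sham 35157 and 54654. In the narrow windows the median all-site difference for 5AZA minus saline was 0.0683 points, with 5280 windows above 0 and 4678 below. The mean of site levels over the narrow windows differed by -0.364 points. The median of the window differences and the mean of site levels thus differed in sign. Summed counts weigh high and low sites by their reads. The median high and low site had 57 and 53 reads in 5AZA 1 and 54 and 49 in 5AZA 2. In saline 1 they had 81 and 79, and in saline 2 66 and 63. Whether this mix sets the sign or the count of windows higher with 5AZA was not tested. limma on log2 ratios called 0 of these windows in each comparison and 0 of all windows tested. At an unadjusted limma p under 0.05 there were 15, 2 and 13 of these. No limma share over all windows is at hand, so these counts show nothing particular to the narrow windows.

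With high sites left out of unmethylated windows, edgeR again called 0 of 9958 in each comparison, and 0.0% of all 89378 windows. The smallest edgeR adjusted p were 0.458, 0.145 and 0.250. At an unadjusted p under 0.05 there were 992 for saline against sham, 982 of them higher in saline. For 5AZA against saline there were 195, 51 higher and 144 lower, and for 5AZA against sham 686, 673 of them higher. These are 9.96, 1.96 and 6.89% of the windows, against 9.64, 19.83 and 13.56% of all windows tested, so the first share is near that of all windows. The balance of directions at low sites has the sign of the low-site means above and rests on the same libraries, sham 2 included. Over all windows tested, whatever their p, 62350 were above 0 and 27018 below for saline minus sham. For 5AZA minus saline these were 16944 and 72430, and for 5AZA minus sham 34950 and 54413. limma called 0 in each, also over all windows, with 1292, 184 and 1038 of these at an unadjusted p under 0.05. Without the limma share over all windows these counts, too, show nothing particular to the narrow windows. The rule keeps windows with a low mean over all 6 libraries, so large differences could hardly occur among them.

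The low-site differences of windows lay in a narrow range, which the rule largely sets by keeping low levels. All windows tested are of any level and need only 3 sites, against 20 for the narrow windows. For saline minus sham the central 95% of the 9958 windows ran from -0.436 to 2.14 points with a median of 0.669, against -5.47 to 12.3 points over all windows tested. For 5AZA minus saline it ran from -1.53 to 1.06 points with a median of -0.108, against -12.4 to 2.97 points. For 5AZA minus sham it ran from -0.598 to 1.77 points with a median of 0.576, against -9.95 to 6.08 points. Over 5 points in either direction lay 4, 0 and 0 of the narrow windows, against 18.65, 29.23 and 20.88% of all windows tested. Over 10 points lay none of the narrow windows in the 3 comparisons.

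**Figure D5:**
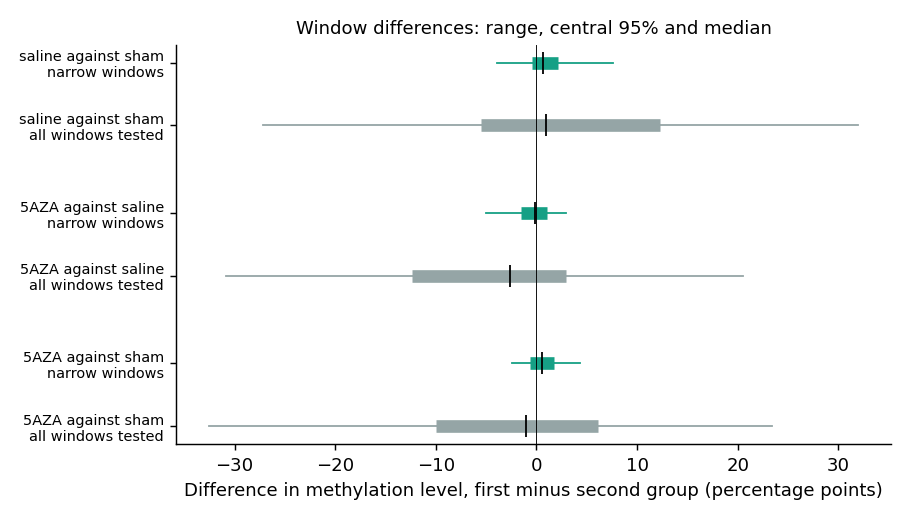
Difference in methylation level between groups (x axis, percentage points, first minus second group) for narrow unmethylated windows and for all windows tested, low sites, in 3 comparisons. Thin lines give the full range, thick bars the central 95% and ticks the median. The narrow windows lie between -5.00 and 7.58 points, whereas all windows reach from -32.6 to 31.95. The rule keeps only low levels in the narrow windows, which limits their range.

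The windows named next were among those with the smallest p in a direction of their comparison, and none passed the threshold. Reads of a window are summed over its CpG sites, so a read counts at each site it covers. For saline against sham the smallest p of low sites was in chr14:75684001-75685000 (20 sites, 1069 to 2085 reads, no placed start), at 3.60 and 2.78% for saline, 0.525 and 0.335% for sham and 0.651 and 1.40% for 5AZA (edgeR adjusted p = 0.458). For 5AZA against saline it was in chr9:51087001-51088000 (20 sites, 436 to 1519 reads, no placed start), at 7.64 and 6.39% for saline, 3.05 and 2.52% for sham and 1.88 and 2.47% for 5AZA (edgeR adjusted p = 0.145). In both windows the saline pair lay above the other 4 libraries. Windows with a placed start follow. The window with the starts of Plod3, a collagen lysine hydroxylase gene, and Znhit1 (chr5:137462001-137463000, 22 sites, 841 to 1189 reads per library) had low-site levels of 4.37 and 4.70% for saline, 1.21 and 0.523% for sham and 2.38 and 1.92% for 5AZA. Saline was 3.67 points above both sham libraries' mean (edgeR adjusted p = 0.458), and both saline libraries were above the rest. The window of Sema4b, a semaphorin gene (chr7:87331001-87332000, 24 sites, 985 to 1717 reads), had 5.03 and 5.07% for saline, 1.69 and 0.885% for sham and 1.32 and 1.18% for 5AZA. Its difference between 5AZA and saline was -3.80 points (edgeR adjusted p = 0.145), while 5AZA and sham overlapped. Higher with 5AZA than with saline was the window of Cdc42se1 and Mllt11 (chr3:95032001-95033000, 27 sites, 396 to 1136 reads), with 3.99 and 3.95% against 1.50 and 0.860% (edgeR adjusted p = 0.145) and sham at 1.57 and 1.01%. With all sites counted, the window of Gng10, a G protein gamma subunit gene (chr4:59048001-59049000, 52 sites), came nearest to the threshold, with 17.96 and 17.7% for saline, 13.1 and 12.7% for 5AZA and 17.3 and 13.2% for sham (edgeR adjusted p = 0.0534 for 5AZA against saline).

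A few promoters were partly methylated outside CCGG. The 107 high sites outside CCGG fell in 70 genes and had a median level of 38.7%, and 10 genes, singled out after their values were seen, had at least 3 of them: Nrcam, Plekha5, Epb41l1, Hes5, Rheb, Sirt1, Tmed8, Tspan5, Sox30 and Zdbf2. Nrcam encodes a neuronal cell adhesion molecule, Hes5 a Notch target repressor, Rheb an activator of mTOR and Sirt1 a deacetylase. In Epb41l1 the 4 sites at -28, -24, -16 and -8, in the repeat near the end of its printed stretch, averaged 72.6 and 73.3% for saline, 42.4 and 40.3% for sham and 54.5 and 45.0% for 5AZA, from 19 to 55 reads. Both saline libraries lay above the other 4, but the 4 sites lie close enough to share reads and do not count as separate measurements. The CpG at -20 between them had 0 to 8.57%. In the whole window of Epb41l1, all sites counted, the levels were 16.96 and 24.9% for saline, 22.1 and 18.5% for sham and 18.4 and 23.1% for 5AZA (edgeR adjusted p = 0.984 for saline against sham). In Hes5, 4 sites at 28 to 43 bases after the start had 45.4 and 40.7%, 33.2 and 50.4%, and 38.8 and 57.6%, and groups overlapped. Rheb had 60.4 and 48.1% for saline, 42.9 and 42.8% for sham and 53.2 and 49.4% for 5AZA, with saline and 5AZA overlapping. No window of these 10 genes passed the edgeR test in any comparison.

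High sites were compared with those of the 274 broad unmethylated windows, the dense windows most like these. Their level was higher in the narrow windows in 6 of 6 libraries, by 0.466 points on average (0.277 to 0.857; exact two-sided sign-flip permutation p = 0.03125, the smallest that 6 libraries allow). The libraries measure the same windows, so this p does not cover the spread among windows. At low sites the order was the other way in each library, with 2.26% in narrow and 2.36% in broad windows in saline 1. Among the narrow windows the high-site level also differed with the number of sites. With 20 to 29 sites per window high sites averaged 69.5 to 74.7% over the libraries, and with 60 or more 68.9 to 74.0%. The first class was higher in each library, with 74.57 against 73.82% in saline 1. In each library this gap was wider than the 0.466 points between narrow and broad windows. Low sites averaged 1.07 to 2.35% and 0.985 to 2.21% in these classes. Windows standing alone and windows in runs of 3 had low-site levels of 1.08 to 2.33% and 1.09 to 2.37%.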

How the data were processed

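Each of the 6 libraries came as a deposited table of CpG sites. It holds, per site, deposited counts of all reads and of methylated ones, and a fraction that the authors deposited and that is their ratio. Reads were aligned with Bowtie to mm9, per the submitters' processing notes; how reads were trimmed and filtered, and which caller was used, is not given in the sources used here. Column meanings were read from the values, and positions are printed 1-based. Total covering reads were 37728517 to 76730132 per library.

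Sites with at least 10 reads in all 6 libraries were used. Levels per library are means over windows of the mean site level. Windows with at least 3 sites were tested on summed counts with edgeR 4.0.16 (R 4.3.3; an intercept per library, a group effect on methylated counts, 1 common dispersion, all 6 libraries), checked on simulated data. Library values were compared by exact permutation. Promoters (RefSeq, GRCm38.p6) were placed where covered CpGs matched the spacing of a sequence's CpGs, at least 10 of them, without using chromosome or build positions. Of 5941 sequences placed once, 5938 were on the table's chromosome.

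Members and gene lists were chosen with earlier results of these data known. Named were the windows with most CpG sites, smallest p, most and fewest high sites or nearest the threshold, the median member, and up to 4 genes per list with most covered sites; chromosome 18 was counted without being named. Alternatives were coverage minimums of 5 and 20, limma 3.58.1 (1 added to each count), high sites from 20% or 50%, pooled reads, no deepest 0.1% of sites, a replicate block and leaving out libraries. Replicate numbers did not pair saline with 5AZA libraries (r = 0.00133 between deviations over 9958 windows). Python 3.11.15, numpy 2.4.6 and pandas 2.3.3 were used.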

Additional observations from a re-analysis of the deposited data

How the results depend on the processing

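Group sizes of 2, sham 2 with 36 reads at the median site, and read counts without molecular identifiers limit what can be seen here. With all sites, leaving out 1 library gave 0 to 1 called windows for saline against sham (1 without sham 1, where 40 of all windows were called) and 0 to 2 for 5AZA against saline (1 without sham 1 or sham 2, with 170 and 141 of all windows, and 2 without 5AZA 1, with 1140). A coverage minimum of 20 gave 1 for 5AZA against saline (851 of all windows). With the replicate block on the saline and 5AZA libraries, 156 windows were called with all sites (6875 of all windows) and 1 with low sites (2 of all windows). The replicate numbers showed no pairing in the narrow windows, and the cause was not tested. The paired differences of levels under the replicate block were -0.180, -1.22 and -3.31 points at low sites, high sites and flanking windows. With balanced pairs these equal the unpaired differences by arithmetic, so they are no check.

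Leaving out a library moved the low-site difference between 0.295 and 1.23 points for saline against sham and between 0.115 and 1.05 for 5AZA against sham, and the high-site difference between 1.38 and 5.07 and between 0.164 and 3.85, with the lower ends without sham 2. The flanking windows turned direction for 5AZA against sham, from -0.903 to 0.0231 points without sham 1, with -1.83 points without sham 2. The other alternatives kept direction and threshold side for every value listed.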

Other observations

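Of the 11284 CCGG sites covered in the promoters, 10 were low, at 13.4 to 29.6%. That of Cd9, at -230 in the sequence printed above, had 16.8 and 15.5% for saline, 25.7 and 19.0% for sham, and 18.5 and 16.5% for 5AZA from 42 to 173 reads. The other CCGG of the same promoter, at -64, had 78.2 to 92.6% over the libraries. The low CCGG site of 2210406O10Rik had 3.33 to 23.9% from 46 to 149 reads. The other 8 had as few as 10 to 25 reads in a library, among them those of Glis3, a zinc finger gene mutated in a syndrome with cystic kidneys, at 15.8 to 37.9%, and of Phlda3, a p53 target, at 9.62 to 35.1%. These sites were singled out after their values were seen.

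High sites were most numerous, at 18, in the window on chromosome 8 at 28089001 to 28090000 (63 CpG sites), whose low sites had 3.37 to 6.18% over the libraries. A single high site was found in the windows on chromosome 7 at 134352001 to 134353000 (25 CpG sites) and on chromosome 17 at 81343001 to 81344000 (20 CpG sites, with the start of Tmem178).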
